A study of Mus musculus with 9 samples.

Results

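Axon guidance ligands and receptors were examined in orofacial tissue of mouse embryos, from which face and palate arise, at gestation day (GD) 12, GD13 and GD14. Each day had 3 one-colour oligonucleotide arrays of total RNA, numbered 1 to 3 in the sample titles, and the labels gave no strain, genotype or treatment and did not say whether the embryos of a sample were pooled. The genes were chosen by symbol: semaphorins, plexins and neuropilins; ephrins and Eph receptors; Slit and Robo genes; netrins, Unc5 genes and Dcc. The choice found 58 probe sets of 45 genes among 12488 probe sets, of which the 10833 with a single symbol stand for 8251 genes. Where a gene had more than 1 probe set, as 12 genes did, the one with the highest mean over the 9 arrays stood for it. The pattern also caught Unc50, which encodes a membrane protein of the Golgi and is not a netrin receptor, so 44 genes belonged to the guidance systems: 22 to the semaphorin, 17 to the ephrin, 2 to the slit and 3 to the netrin system. No Slit ligand was among them, and Slit genes were not analysed here.

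Guidance cues steer growing axons and migrating cells by attraction or repulsion. Semaphorins act through plexins, for most secreted class 3 members together with a neuropilin. Ephrins and Eph receptors signal in both directions where cells touch, Slits repel through Robo receptors, and netrins attract through Dcc and repel through Unc5 receptors. The same systems act outside the nervous system, in neural crest migration, blood vessel growth and bone, and mice that lack the ephrin Efnb1 or both Ephb2 and Ephb3 have cleft palate.

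The values are deposited intensities on a linear scale, with the same trimmed mean on every array and medians of 47.15 to 56.95. The labels do not say that replicates came from separate litters, so p-values measure only the spread between these samples. The third array of each day stood apart in its control probe sets: the 3' to 5' signal ratio of Gapdh was 0.802 to 0.851 on the third arrays and 1.09 to 1.29 on the other arrays. For actin it was 1.25 to 1.42 on the third arrays and 1.54 to 2.44 on the others. On arrays 1 and 2 the actin ratio was 1.54 and 1.76 at GD12, 2.09 and 2.23 at GD13, then 2.44 and 2.29 at GD14. All 13 facial mesenchyme markers that were found, Msx1, Pax9 and Prrx1 among them, were above the filter described next. Of 10 epithelial markers found, 7 were above it, and the keratins Krt5, Krt14 and Krt15 were under it. In tissue RNA, fewer cells of a type and less RNA per cell cannot be told apart.

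A probe set was tested where its mean log2 value over the 9 arrays, after 3 was added to each intensity, exceeded the 25th percentile, equal to 10.4 as an intensity. That held for 39 of the 45 genes. The other 6, the netrin receptor Dcc, the ephrin Efna5, the Eph receptor Epha2 and the semaphorins Sema3c, Sema6a and Sema6b, were not tested. Their highest single values were 19.8 for Dcc and 26.7 for Efna5, 12.9 for Epha2, 21.4 for Sema3c, 14.4 for Sema6a and 22.5 for Sema6b.

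Few guidance genes passed the test between days, and those that did were the secreted class 3 semaphorins Sema3e and Sema3b, both higher on GD14 than on GD12. Sema3e was also called on GD13, without a replicate block only. Sema3b is among the tested genes only through the later days, since all its GD12 values lay under the filter intensity. In limma, with adjustment over 9326 probe sets and an adjusted p under 0.05, 2 of the 39 tested genes rose between GD12 and GD14 and 0 fell; of all probe sets tested, 3.24% rose and 1.06% fell (4.3% in all). At an unadjusted p under 0.05 the same comparison had 7 of the 39 genes, against 17.5% of all probe sets. Between GD12 and GD13, 1 gene rose and 0 fell, where 0.643% of all probe sets were called (0.568% higher and 0.0751% lower). At an unadjusted p under 0.05 that comparison had 7 of the 39 genes, against 11% of all probe sets. Without overlap, 4 of the 39 lay higher and 7 lower on GD13, where 10.1% of all probe sets lay higher and 8.39% lower. From GD13 to GD14, 0 were called in limma, against 0.0429% of all probe sets (0.0322% higher and 0.0107% lower), and 2 had an unadjusted p under 0.05 (7.18% of all probe sets). The F-test over the 3 days called 1 gene, Sema3e, and 2.58% of all probe sets. Apart from GD13 against GD12, the counts of guidance genes lie near the shares of all probe sets. No count was tested for the group, so they are no result about these genes as a group.

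The replicate numbers shared variation across days, so a fit with the number as a block was run beside the one without it. With the block, 3 of the 39 genes were called between GD12 and GD14 (Sema3e, Sema3b and the Eph receptor Epha4), against 6.65% of all probe sets. The F-test with the block called the same 3 genes, where it called 3.53% of all probe sets. On GD13 against GD12 and on GD14 against GD13 the block gave 0 of the 39 genes, against 0.74% and 0.0643% of all probe sets. Without overlap between GD14 and GD12, 5 of the 39 genes lay higher and 4 lower on GD14, where 12.1% of all probe sets lay higher and 10.3% lower (22.3% in all).

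**Figure D1:**
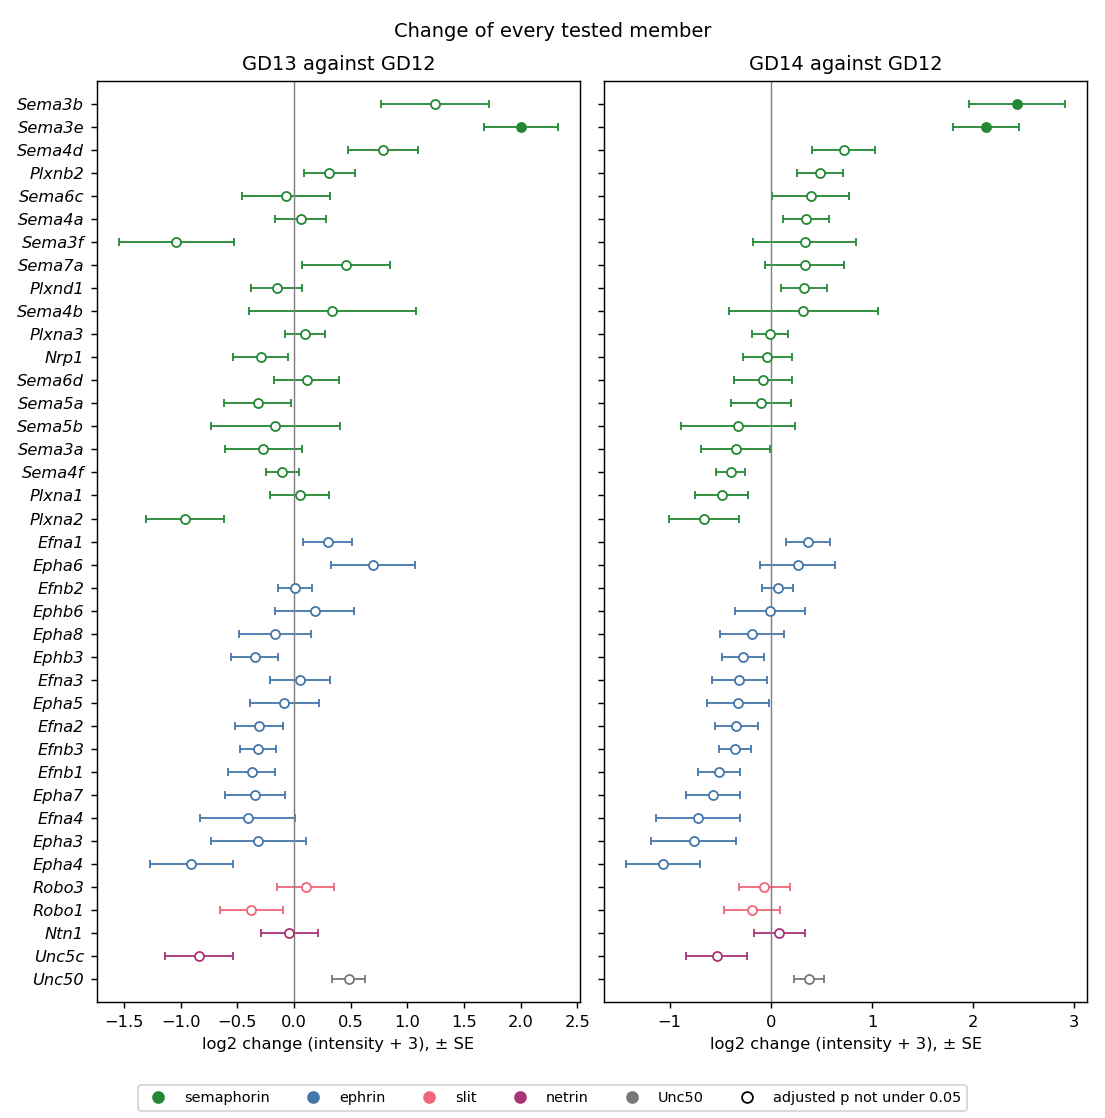
Change of the 39 tested genes, with the log2 change of intensity plus 3 on the x axis, GD13 against GD12 on the left and GD14 against GD12 on the right. Points are limma estimates, bars their SE, filled points have an adjusted p under 0.05, and colours give the system. Sema3b (2.43) and Sema3e (2.12) lie apart from the other genes on GD14, and Epha4 has the lowest value (-1.06).

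Sema3e encodes a secreted semaphorin that binds plexin D1 directly, without a neuropilin, and guides vessels as well as axons. Its intensity was 27.9, 10.8 and 9.7 at GD12, 64.0, 80.2 and 59.5 at GD13, then 64.5, 68.0 and 90.7 at GD14. Every GD13 and GD14 array lay above every GD12 array, and GD13 and GD14 overlapped. The rise on GD14 over GD12 was 4.36-fold on the scale of intensity plus 3 (log2 2.12, SE 0.33, limma adjusted p = 0.00845, and 0.0195 with the replicate block). The rise on GD13 over GD12 was 4.01-fold (log2 2.002, SE 0.33, adjusted p = 0.0357), and its call ended with the replicate block (adjusted p = 0.0662). It also ended in 8 of the 9 fits that left out a single array (adjusted p 0.0575 to 0.168) and held only without GD12 replicate 1 (0.00468). One GD12 value lay under 10.4, and the log2 change of GD14 against GD12 was 2.28 with 1 added and 1.70 with 11 added.

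The step from GD13 to GD14 had a log2 change of 0.12 for Sema3e (SE 0.33). The second step minus the first gave -1.88 (unadjusted p = 0.00938, adjusted p = 0.953), so a difference between the steps did not pass. That test called 0 of the 39 genes and 0% of all probe sets in limma. At an unadjusted p under 0.05 it had 3 of the 39, namely Sema3e, Sema3f and Unc50, against 4.86% of all probe sets. Without the third arrays of all days the log2 change of Sema3e on GD14 against GD12 was 1.75 (adjusted p = 0.103), a fit with 2 arrays a day.

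The start region of Sema3e is shown because its rise on GD14 was called with and without the replicate block. RefSeq places these 300 bases, 250 before and 50 after the transcription start, at chr5:14025026-14025325 on the plus strand of GRCm38.p6, and capitals mark GC boxes (GGGCGG or its reverse complement CCGCCC).
Sema3e: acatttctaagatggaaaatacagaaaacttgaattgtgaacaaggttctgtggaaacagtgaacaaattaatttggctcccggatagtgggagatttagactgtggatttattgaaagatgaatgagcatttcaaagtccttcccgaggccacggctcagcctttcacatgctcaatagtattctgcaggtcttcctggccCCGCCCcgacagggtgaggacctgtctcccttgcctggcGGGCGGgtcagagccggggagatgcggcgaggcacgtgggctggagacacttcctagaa
The region held 2 GC boxes, 0 TATA boxes (TATAAA) and 0 RUNX cores (TGTGGT), each searched on both strands. Of 32851 promoters of that length in the table, 35.7% held a GC box, 13.6% a TATA box and 16.8% a RUNX core. Its 11 CG pairs compare with a median of 7 over all these promoters, and 58.6% of them had fewer than 11.

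Sema3b, a secreted class 3 semaphorin that signals through neuropilins and plexin A receptors, had intensities of 4.6, 4.8 and 7.5 on GD12. The GD13 arrays had 18.3, 7.9 and 32.7, and the GD14 arrays had 74.2, 23.1 and 45.6. The GD14 and GD13 values all lay above the GD12 values, while GD13 and GD14 overlapped. Mean intensity was 47.6 ± 25.6 on GD14 against 5.63 ± 1.62 on GD12 (SD, n = 3 each). All GD12 values lay under 10.4, so no fold is given, and a gene that enters the test through its high days had to differ. The fitted log2 change of 2.43 (SE 0.48, limma adjusted p = 0.0247) is therefore a description. It was 2.75 with 1 added and 1.72 with 11 added. GD13 against GD12 (log2 1.25, adjusted p = 0.374) and GD14 against GD13 (log2 1.19, adjusted p = 0.664) did not pass. The Sema3b call ended without any single GD12 array and without GD14 replicate 1 or 3, with a highest adjusted p of 0.0901 without GD14 replicate 1. A second probe set of Sema3b lay under the filter, so the rise rests on 1 probe set.

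The other tested class 3 semaphorins, Sema3a and Sema3f, did not pass. Sema3a, the repellent that acts through Nrp1, had 73.7, 53.5 and 57.3 at GD12, 48.0, 39.1 and 66.3 at GD13, then 34.5, 35.6 and 84.9 at GD14. The third GD14 array was the highest of all 9, and the other GD14 arrays were the lowest. The log2 change of Sema3a on GD14 against GD12 was -0.35 (SE 0.34, adjusted p = 0.678). Without the third arrays it was -0.79 (adjusted p = 0.125). Sema3f, which acts through Nrp2, had 45.4, 28.1 and 24.2 at GD12, 9.2, 6.5 and 37.8 at GD13, then 28.6, 47.2 and 48.8 at GD14. Its low values were the first and the second GD13 array, while the third was within the range of the other days. For Sema3f the first step had a log2 change of -1.04 (adjusted p = 0.506) and the second 1.37 (adjusted p = 0.582).

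**Figure D2:**
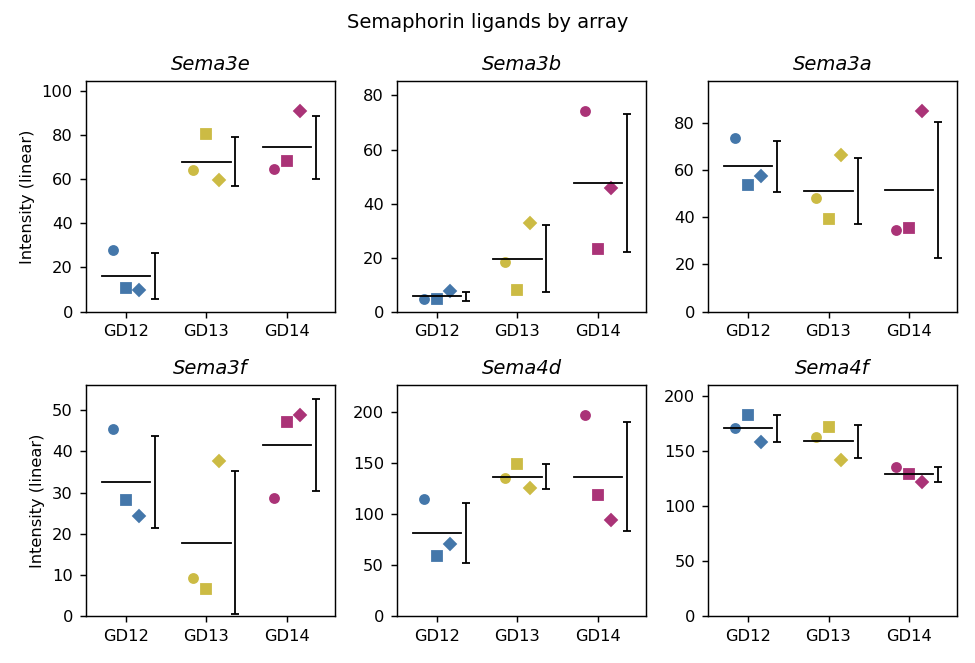
Intensity of 6 semaphorin ligands on each array, on a linear y axis from 0, by gestation day. Circles, squares and diamonds are arrays 1, 2 and 3 of a day, horizontal lines the means and bars the SD. All GD13 and GD14 values of Sema3e (59.5 to 90.7) lie above its GD12 values (9.7 to 27.9), while Sema3f overlaps between all days.

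The membrane-bound semaphorins gave 0 calls in limma. Sema4d and Sema4f had an unadjusted p under 0.05 on GD14 against GD12, as did 17.5% of all probe sets. Of the class 4 genes, Sema4d, whose protein signals through plexin B1 and restrains bone formation in mice, had 114.7, 58.6 and 70.0 at GD12, 135.5, 149.0 and 124.9 at GD13, then 196.5, 118.5 and 94.4 at GD14. All GD13 values lay above all GD12 values, and GD14 overlapped both. Its log2 change was 0.78 on GD13 (SE 0.31, adjusted p = 0.382) and 0.72 on GD14 (SE 0.31, adjusted p = 0.273), each against GD12. Sema4f, a class 4 semaphorin, had 170.3, 182.2 and 158.4 at GD12, 162.1, 171.6 and 141.6 at GD13, then 135.2, 128.9 and 121.5 at GD14. The GD14 arrays were below all arrays of the other days, by a log2 of -0.40 against GD12 (SE 0.14, adjusted p = 0.191) and of -0.29 against GD13 (SE 0.14, adjusted p = 0.759). Sema4f was the only gene of the 39 whose GD13 and GD14 values did not overlap, where 13% of all probe sets separated (7.14% higher and 5.88% lower).

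Sema4a and Sema4b had log2 changes of 0.34 and 0.32 on GD14 against GD12, and a second probe set of Sema4a gave -0.15. Sema4b had a single low array, GD12 replicate 1 at 6.5, against 63.1 and 96.1 on the other GD12 arrays, and its other probe sets had log2 changes of -0.17 and 0.00. The class 5 genes, whose proteins carry thrombospondin repeats, had intensities of 19.9 to 51.2 (Sema5a) and 8.4 to 40.4 (Sema5b) over all arrays, and their days overlapped. For Sema5a these were 26.0, 51.2 and 34.3 at GD12, 19.9, 38.1 and 28.9 at GD13, then 31.7, 42.9 and 27.3 at GD14. Sema6c and Sema6d, transmembrane ligands of class 6, gave log2 changes of 0.39 and -0.08 on GD14 against GD12. Sema6c had 88.0, 31.2 and 86.3 at GD12, 79.7, 41.5 and 62.1 at GD13, then 93.5, 79.7 and 75.8 at GD14, and GD12 held both a high and its lowest value. Sema7a, a lipid-anchored semaphorin that also binds integrins, had 34.3, 40.7 and 14.6 at GD12, 37.0, 29.8 and 53.8 at GD13, then 22.9, 45.9 and 42.4 at GD14, with all days overlapping.

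Semaphorin receptors gave 0 calls in limma, and 1 of the 6, Plxna2, had an unadjusted p under 0.05 in any comparison. That was on GD13 against GD12, where 11% of all probe sets had such a p. Plxnd1, the receptor of Sema3e, had 292.4, 251.7 and 262.4 at GD12, 196.5, 202.0 and 352.7 at GD13, then 323.1, 349.5 and 340.7 at GD14. All GD14 values of Plxnd1 lay above all its GD12 values, but GD13 held the lowest values and, on replicate 3, the highest. Its log2 change was 0.33 on GD14 against GD12 (SE 0.23, adjusted p = 0.522). Plxnb2, a receptor of class 4 semaphorins, had 200.7, 288.2 and 306.2 at GD12, 395.2, 336.6 and 255.7 at GD13, then 335.3, 419.6 and 347.9 at GD14. GD14 lay above GD12 without overlap, by a log2 of 0.48 (SE 0.23, adjusted p = 0.312). A second probe set of Plxnb2 did not share this: it was far higher on the third array of each day than on the others, and gave a log2 change of -0.22 (adjusted p = 0.912). Plxna2, a co-receptor for class 3 semaphorins and receptor of class 6, had 52.0, 65.8 and 55.5 at GD12, 23.6, 17.5 and 51.8 at GD13, then 28.7, 32.6 and 47.0 at GD14. Every later array lay below every GD12 array, with a log2 change of -0.96 on GD13 (SE 0.34, adjusted p = 0.336) and -0.66 on GD14 (SE 0.34, adjusted p = 0.374), each against GD12.

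Plxna1 (log2 -0.49 on GD14 against GD12) and Plxna3 (-0.01), which encode further class A plexins, overlapped between the days. Nrp1, the neuropilin that binds Sema3a and vascular endothelial growth factor, had 338.5, 317.1 and 184.1 at GD12, 237.6, 212.6 and 210.1 at GD13, then 311.0, 257.5 and 229.4 at GD14. The third array was the lowest of each day. Its log2 change on GD14 against GD12 was -0.04 (SE 0.24, adjusted p = 0.965), and a second probe set of Nrp1 gave 0.42 (adjusted p = 0.466).

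**Figure D3:**
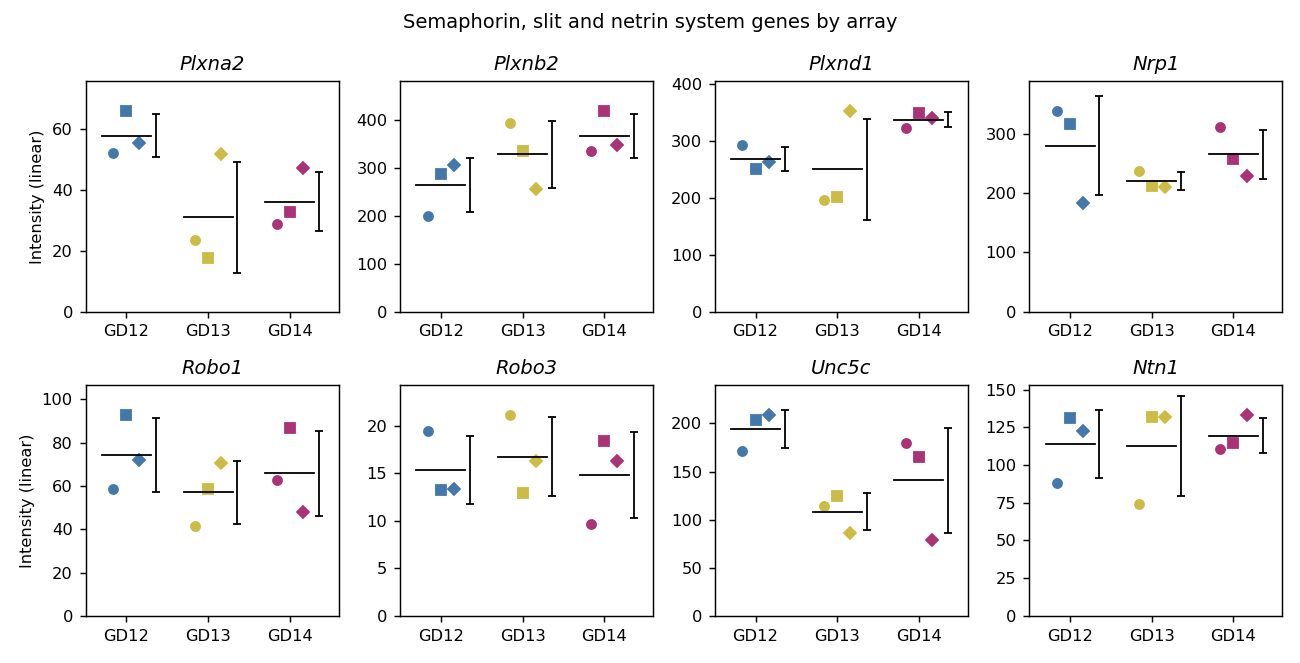
Intensity of 8 genes of the semaphorin, slit and netrin systems on each array, on linear y axes from 0, by gestation day. Circles, squares and diamonds are arrays 1, 2 and 3 of a day, horizontal lines the means and bars the SD. Plxna2 and Unc5c have their lowest means on GD13 (31.0 and 108.4), and the third arrays often lie apart from the other arrays of a day.

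Most ephrin system genes had lower values on GD14. Of the 15 tested, 12 had a negative log2 change on GD14 against GD12 (80%), against 52.5% of all probe sets, and 0 were called in limma without a block. Their median log2 change was -0.32, against -0.02 for all probe sets tested. A share of this size was not particular to the ephrin system. Of the facial mesenchyme markers 76.9% were lower (median -0.32), of the neuronal markers 93.3% (median -0.71) and of the glial markers 80%. Of the endothelial markers 18.2% were lower, of the epithelial 28.6%, and of the osteoblast, skeletal muscle and macrophage markers 0%. In the semaphorin system 10 of 19 tested genes had positive and 9 negative log2 changes, and the difference between the systems was not tested. With an unadjusted p under 0.05 on GD14 against GD12 there were 2 of the 15 ephrin system genes, Epha4 and Efnb1. Of all probe sets, 17.5% had such a p, so this count is no result about the ephrin system. On GD14 against GD12 the values of 2 of the 15 lay below without overlap (Epha4 and Efnb3) and of 0 above. Of all probe sets, 10.3% lay below and 12.1% above in that comparison. On GD13 against GD12, 5 ephrin system genes lay below without overlap (Efna2, Efnb1, Epha4, Epha7 and Ephb3) and 0 above. There 8.39% of all probe sets lay below and 10.1% above.

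Epha4 encodes a receptor tyrosine kinase that binds ephrins of both classes, and it had the lowest log2 change of the 39 genes on GD14 against GD12. Its intensity was 94.8, 102.2 and 147.3 at GD12, 36.7, 58.5 and 92.8 at GD13, then 34.6, 55.2 and 74.3 at GD14. Every array of the later days lay below every GD12 array, and the third array was the highest of each day. GD14 against GD12 gave a log2 change of -1.06 (SE 0.37, limma adjusted p = 0.168), and with the replicate block the same change had an SE of 0.16 and was called (adjusted p = 0.0162). GD13 against GD12 gave -0.91 (adjusted p = 0.397, and 0.0718 with the block). Without the third arrays of all days GD14 against GD12 gave -1.12 (adjusted p = 0.139). With the actin 3' to 5' ratio as a covariate it gave -0.71 (adjusted p = 0.197). A second probe set lay under the filter.

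The start region of Epha4 is shown as the gene with the strongest fall on GD14 against GD12 under the block, to be set beside that of Sema3e. RefSeq places it at chr1:77515039-77515338 on the minus strand of GRCm38.p6, again 250 bases before to 50 after the start, with the GC box in capitals.
Epha4: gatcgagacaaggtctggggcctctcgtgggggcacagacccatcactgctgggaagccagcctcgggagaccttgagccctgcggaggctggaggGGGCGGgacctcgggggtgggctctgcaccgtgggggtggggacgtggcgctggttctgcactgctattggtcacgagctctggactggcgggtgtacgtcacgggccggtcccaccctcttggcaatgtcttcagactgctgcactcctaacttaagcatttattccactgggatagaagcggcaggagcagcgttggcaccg
It held 1 GC box, 0 TATA boxes and 0 RUNX cores, and 17 CG pairs, where 68.6% of all promoters of the table had fewer pairs. Its GC content was 64.0%, against 50.7% for the Sema3e region and a median of 52.7% over all promoters of the table. A match of letters is not a bound site.

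Epha3, another class A receptor, was among 7 of the 39 genes for which the third array was the highest on every day, as held for 11.8% of all probe sets. It had 115.1, 133.6 and 162.9 at GD12, 81.6, 93.4 and 166.8 at GD13, then 57.2, 53.4 and 158.4 at GD14. The third arrays of the 3 days were nearly level, while the other arrays were lower on each later day. With all arrays GD14 against GD12 gave a log2 change of -0.76 (SE 0.42, limma adjusted p = 0.402, and 0.112 with the replicate block). Without the third arrays it was -1.12, the single call of that fit among these genes (adjusted p = 0.0384). With the actin 3' to 5' ratio as a covariate it was -0.29 (adjusted p = 0.523). On the arrays other than the third, the actin ratio was higher on each later day. In the fit without the third arrays, day and ratio therefore cannot be told apart. The part of the ratios in these values was not tested.

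Of the remaining class A receptors, Epha7 had 80.8, 70.3 and 68.0 at GD12, 60.4, 49.4 and 60.9 at GD13, then 53.4, 68.1 and 30.1 at GD14. Its GD13 values lay below GD12, and the highest GD14 value just reached the GD12 range (68.1 on GD14 against 68.0 on GD12). The log2 change of Epha7 on GD14 against GD12 was -0.57 (SE 0.26, adjusted p = 0.309). A second probe set gave -0.96 (adjusted p = 0.124, and 0.0448 with the replicate block, a call). The GD14 intensities of that second probe set were 3.3, 11.1 and 6.7, with 3.3 and 6.7 under the filter intensity. Its call with the block therefore rests on values near the filter. Epha5 (-0.32), Epha8 (-0.19) and Epha6 (0.26) overlapped between GD14 and GD12. Among class B receptors, Ephb3 had 108.0, 105.9 and 108.0 at GD12, 89.0, 69.9 and 94.0 at GD13, then 83.2, 70.3 and 117.7 at GD14. GD13 lay below GD12, and GD14 spread on both sides of it (log2 -0.27, SE 0.21, adjusted p = 0.572). Ephb6, whose kinase domain is inactive, gave a log2 change of -0.01 on GD14 against GD12, and its other probe set -0.04.

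The ephrins themselves gave 0 calls in limma, and 1 of 7 tested, Efnb1, had an unadjusted p under 0.05. That was on GD14 against GD12, where 17.5% of all probe sets had such a p. Efnb1, the X-linked transmembrane ephrin whose mutation in humans causes craniofrontonasal syndrome, had 290.2, 260.0 and 232.9 at GD12, 207.1, 212.7 and 181.1 at GD13, then 135.9, 186.5 and 234.5 at GD14. GD13 lay below GD12, and the third GD14 array reached into the GD12 range. Its log2 change on GD14 against GD12 was -0.51 (SE 0.21, adjusted p = 0.247). Efnb3 had 621.8, 730.6 and 534.9 at GD12, 497.6, 544.9 and 460.8 at GD13, then 481.4, 503.8 and 480.5 at GD14. Its GD14 values lay below all GD12 values (log2 -0.35, SE 0.16, adjusted p = 0.298), and its other probe set gave -0.44 (adjusted p = 0.307).

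Efnb2, the ephrin of arteries, had 316.5, 359.8 and 354.4 at GD12, 337.7, 311.1 and 391.0 at GD13, then 388.6, 365.5 and 327.5 at GD14, with a log2 change of 0.07 on GD14 against GD12 (SE 0.15, adjusted p = 0.879). The class A ephrins are anchored to the membrane by a lipid. Efna1 had 78.6, 69.7 and 50.5 at GD12, 70.0, 100.3 and 75.2 at GD13, then 88.3, 95.0 and 73.3 at GD14, and the days overlapped. On GD14 against GD12, Efna1 gave a log2 change of 0.37 (adjusted p = 0.432), Efna2 -0.34, Efna3 -0.31 and Efna4 -0.72 (adjusted p = 0.431). Efna4 was lowest on the third array of every day.

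**Figure D4:**
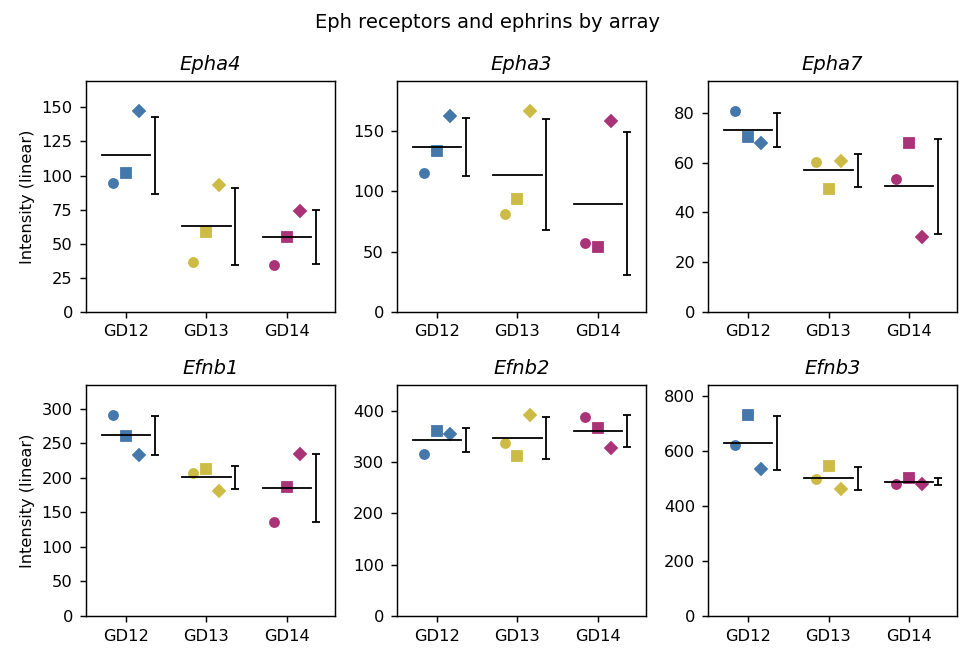
Intensity of 3 Eph receptors and 3 ephrins on each array, on linear y axes from 0, by gestation day. Circles, squares and diamonds are arrays 1, 2 and 3 of a day, horizontal lines the means and bars the SD. Epha4 lies below its GD12 values (94.8 to 147.3) on all later arrays, and the third arrays of Epha3 stay between 158.4 and 166.8.

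The slit and netrin systems gave 0 calls in limma. In any comparison, 1 of their 4 tested genes had an unadjusted p under 0.05, Unc5c on GD13 against GD12. There 11% of all probe sets had such a p. Robo1, a Slit receptor of axons and migrating cells, had 58.8, 92.6 and 71.9 at GD12, 41.5, 58.7 and 70.8 at GD13, then 62.7, 86.6 and 48.0 at GD14. Robo3, a Robo of commissural axons, had 19.5, 13.2 and 13.4 at GD12, 21.1, 12.9 and 16.3 at GD13, then 9.7, 18.4 and 16.3 at GD14. All days overlapped for both receptors, with log2 changes on GD14 against GD12 of -0.19 for Robo1 (SE 0.28) and -0.06 for Robo3 (SE 0.25).

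Ntn1, the ligand netrin-1, had 88.1, 130.9 and 122.6 at GD12, 74.3, 131.6 and 131.7 at GD13, then 110.8, 114.7 and 132.9 at GD14. Its log2 change on GD14 against GD12 was 0.08 (SE 0.25, adjusted p = 0.913), and a second probe set lay under the filter. Unc5c, a repulsive netrin receptor, had 171.6, 203.3 and 208.5 at GD12, 114.0, 124.7 and 86.6 at GD13, then 179.4, 165.0 and 78.7 at GD14. The GD13 values lay below all GD12 values (log2 -0.84, SE 0.30, adjusted p = 0.339), and GD14 held values of both kinds, with replicate 3 the lowest of all 9 (log2 -0.54 against GD12, SE 0.30, adjusted p = 0.413). Dcc, the attractive netrin receptor, had 3.8 to 5.8 on GD12, 7.9 to 19.8 on GD13 and 4.2 to 7.0 on GD14, all but 1 of them under 10.4.

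Unc50, outside these systems, had 823.9, 745.0 and 846.6 at GD12, 1274.2, 1107.8 and 1005.9 at GD13, then 1073.1, 1010.4 and 1058.6 at GD14. Every later array lay above every GD12 array, yet its log2 changes of 0.48 on GD13 (adjusted p = 0.246) and 0.38 on GD14 (adjusted p = 0.219), each against GD12, did not pass.

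Genes that act beside these systems were drawn from a list of co-receptors and other guidance signals. Of 17 tested, 0 rose and 1 fell on GD14 against GD12, with a median log2 change of 0.13, against -0.02 for all probe sets tested. Of all probe sets, 3.24% rose and 1.06% fell, so 1 of 17 is no result about the list. The gene that fell was Cxcl12, a chemokine that guides migrating cells, with 257.3, 239.8 and 282.9 on GD14 against 414.9, 416.9 and 490.0 on GD12 (log2 -0.75, SE 0.15, limma adjusted p = 0.0256). Every GD14 value lay below every GD12 value.

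Markers of other cells moved over the same days. On GD14 against GD12, 3.24% of all probe sets rose and 1.06% fell, and 17.5% had an unadjusted p under 0.05. A count of 1 in a marker list is therefore no result about that list. On GD14 against GD12, 4 of 4 tested osteoblast markers, 5 of 10 skeletal muscle markers, 5 of 7 macrophage markers and 2 of 7 epithelial markers rose, as did Sema3e. Sema3b is not set beside them, since all its GD12 values lay under the filter intensity. The summed intensity of the osteoblast markers was 8039 to 9761 on GD14 against 999.6 to 1362 on GD12, and that of the epithelial markers 1160 to 1354 on GD14 against 792.1 to 843.2 on GD12. Of 11 endothelial markers 0 were called (1 at an unadjusted p under 0.05), with sums of 1976 to 2103 on GD14 against 1517 to 1707 on GD12. Of 15 neuronal markers 0 rose and 1 fell (6 at an unadjusted p under 0.05), and 14 had negative log2 changes. The neuronal sums were 1555 to 2303 on GD14 against 2087 to 4159 on GD12. Facial mesenchyme markers had 0 higher and 1 lower of 13 (5 at an unadjusted p under 0.05). Their sums were 4252 to 4654 on GD14 against 5337 to 5683 on GD12. For glia, 0 of 5 markers were called (2 at an unadjusted p under 0.05), with sums of 472.2 to 722.8 on GD14 against 867.0 to 1319 on GD12. With the replicate block, the calls were 4 of 4 osteoblast, 6 of 10 muscle, 5 of 7 macrophage and 3 of 7 epithelial markers. They were 1 of 11 endothelial, 4 of 15 neuronal, 3 of 13 mesenchyme and 1 of 5 glial markers. Of all probe sets, 6.65% were called with the block. No marker of these lists was at 0 on all arrays. The part of these cells in the values of the guidance genes was not tested.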

How the data were processed

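The samples were 9 arrays of orofacial tissue RNA, 3 for each of 3 gestation days per the labels' titles. The authors deposited 1 linear intensity per probe set and array; once 2% of probe sets at either end are trimmed, the mean is 150.1 on every array, as after scaling to a common target. The software behind the intensities is not given in the sources used here. Array annotation named the genes: 10833 probe sets had 1 symbol, 396 several and 1193 none, apart from 66 control probe sets, and all 45 gene IDs were found in the RefSeq gene table (GRCm38.p6), which changed 0 symbols. Depth does not apply to arrays, and their number limits the precision.

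Intensities were converted to log2 after adding 3, the rounded 10th percentile. Probe sets at or under the 25th percentile of mean log2 and control probe sets were left out, and 9326 were fitted in limma 3.58.1 (R 4.3.3) with 3 group means over all 9 arrays (6 residual and 2.85 prior degrees of freedom) and Benjamini-Hochberg adjustment. The pipeline was tested on simulated data. Python 3.11.15 with matplotlib 3.10.9 drew the plots. Arrays of the same replicate number had residual correlations of 0.189 to 0.419 over 9 pairs, those of different numbers -0.287 to -0.0171, so the numbers of the titles were treated as pairing the arrays and the fit with a replicate block stands beside results whose call it changed.

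Genes given with values on every array were those called in any comparison, the 2 brightest of each system and the one with the smallest F-test p of each family. Epha3, Epha7, Sema3a, Sema3f and Sema4d were added after their values were seen, as were the genes under the filter. Unc50, which belongs to no system and was not called, was also given with its values, outside this rule. The genes, lists and tests were chosen with earlier results of these data known. Alternatives were quantile normalization, median scaling, adding 1 or 11, no filter, a filter at the median, trend with robust variances, array weights, the block, the actin ratio as a covariate, omission of single arrays or of replicate 3 of every day, only the groups compared and the mean of a gene's probe sets. A further list of pathway genes is not reported here.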

Additional observations from a re-analysis of the deposited data

How the results depend on the processing

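Of the 39 genes, the count called between GD13 and GD12 (1 as reported) was 0 with quantile normalization, median scaling, no filter, a filter at the median, the replicate block, the actin ratio as a covariate, the third arrays of all days left out, or only the groups compared, and 0 to 1 when single arrays were left out. For Sema3e, the gene concerned, the adjusted p was 0.0517 with median scaling and 0.118 with only the groups compared, and 0.00468 to 0.168 without single arrays, with the call kept only without GD12 replicate 1. Between GD14 and GD12 (2 as reported) the count was 0 with a filter at the median, which removes Sema3e and Sema3b, 1 (Epha3) with the third arrays left out, 3 with the replicate block and 1 to 2 without single arrays. The F-test (1 as reported) gave 0 with a filter at the median and with the third arrays left out, 2 with trend and robust variances and with array weights, 3 with the replicate block, and 0 to 2 without single arrays. Among the 39 genes the block changed no other call than those of Sema3e on GD13, Sema3b in the F-test and Epha4. GD14 against GD13 gave 0 under all alternatives. The Sema3e call on GD14 against GD12 held without each single array (adjusted p 0.00161 to 0.0333).

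Signs of small log2 changes on GD14 against GD12 turned, none of them called. With single arrays left out, the ranges were -0.31 to 0.13 for Nrp1, -0.087 to 0.19 for Ntn1, -0.40 to 0.0098 for Robo1, -0.21 to 0.16 for Robo3, -0.30 to 0.15 for Sema5a, -0.073 to 0.63 for Sema6c and -0.065 to 0.62 for Sema7a. The mean of the probe sets gave 0.19 for Nrp1, the actin covariate 0.0058 for Robo3, array weights 0.093 for Sema5a, and the fit without the third arrays 0.0095 for Sema5a and -0.18 for Sema7a. The cause was not tested. With 3 arrays a day precision is low, and values near 10.4, as for Sema3b on GD12, lie close to the filter.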

Other observations

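Second probe sets of the same gene did not always move alike. The second Plxnb2 probe set had 78.3, 95.1 and 212.6 at GD12, 61.3, 68.7 and 270.5 at GD13, then 60.7, 75.4 and 215.1 at GD14, and the third array was the highest of every day. The second Nrp1 probe set had 132.2, 112.0 and 71.8 at GD12, 116.4, 116.9 and 105.5 at GD13, then 163.7, 158.4 and 100.4 at GD14, and the third array was the lowest of every day, as for the first. Summed over the 17 ephrin system genes, intensity was 1737 to 2101 on GD14 against 2345 to 2538 on GD12, while the 22 semaphorin system genes summed to 2113 to 2222 on GD14 against 1877 to 1899 on GD12. These sums are weighted to the brightest probe sets and were not tested.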
